A study of Caenorhabditis elegans with 2 samples.

Results

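Peaks of the neuronal transcription factor UNC-3 at 4 genes of Caenorhabditis elegans are described here: acy-1, dmsr-7, tns-1 and plr-1. They are 4 of 19973 protein-coding genes. Each was chosen because a peak of the conservative list, the main list of reproducible peaks deposited for both replicates, had its summit between 2000 bp upstream of the annotated 5' end and the 3' end of the gene, with a COE site within 100 bp of that summit. A COE site is here TCCC, any 2 bases and GGGA, a pattern that reads the same on both strands. The conservative list held 631 peaks, of which 15 (2.38%) held such a site and 4 lay in the windows of these genes. A conservative peak was overlapped by 2.12% of the 30297 peaks in the ranked list, the long list for both replicates, of which 0.376% held a site. The peaks themselves thus chose the genes, and the signal, rank and site distance of the 4 peaks are given as a description, with no test.

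Chromatin was precipitated through UNC-3 carrying a TY1::EGFP::3xFLAG tag, with an antibody against GFP according to the description, although the field for the antibody has unc-3. The samples were whole late embryos of strain RW12259, obtained by bleaching and given an age of 2.5 hours, and the labels place the CRISPR-made allele on chromosome II. The annotation has unc-3 on chromosome X, and whether the tag sits at the gene's own locus was not settled from the labels. All animals carried the tagged allele, so there is a single group, with 2 biological replicates named replicate 1 and replicate 2. No library from untagged animals or from input was used here, so no background from unprecipitated chromatin stands beside the values. The lists hold no read counts, which leaves the sequencing depth unknown. Whole embryos were used, so binding in a few cells and weak binding in many cells cannot be told apart.

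UNC-3 is a transcription factor, and in the worm it represents the family called COE after Collier, Olf and EBF. In motor neurons that use acetylcholine it acts as a terminal selector, switching on neuron-type genes through nearby COE sites and keeping them active. The 4 genes encode proteins at the cell surface or just beneath it. DMSR-7 is a predicted G protein-coupled receptor for neuropeptides, named after the myosuppressin receptors of Drosophila. ACY-1 is an adenylyl cyclase, the enzyme that makes the second messenger cyclic AMP, and it acts downstream of the stimulatory G protein in worm neurons and muscle. PLR-1 is a membrane-spanning ubiquitin ligase that removes Wnt receptors of the Frizzled family from the cell surface. TNS-1 is the worm tensin, and tensins are known from vertebrates to link integrin adhesion receptors to the actin cytoskeleton.

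The peaks at acy-1, dmsr-7 and plr-1 are shown whole, because each holds the COE site by which its gene was chosen and shows where the site lies in the peak. The sequence is the forward strand of WBcel235, the build of the deposited ce11 coordinates, and all 3 genes are transcribed from that strand. Capitals mark the COE site.
acy-1, chrIII:4721727-4721990: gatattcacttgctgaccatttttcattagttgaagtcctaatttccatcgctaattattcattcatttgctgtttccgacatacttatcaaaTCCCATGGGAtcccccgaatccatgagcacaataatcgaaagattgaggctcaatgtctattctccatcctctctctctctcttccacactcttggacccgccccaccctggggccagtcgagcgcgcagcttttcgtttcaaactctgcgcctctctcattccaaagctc
dmsr-7, chrV:5403984-5404247: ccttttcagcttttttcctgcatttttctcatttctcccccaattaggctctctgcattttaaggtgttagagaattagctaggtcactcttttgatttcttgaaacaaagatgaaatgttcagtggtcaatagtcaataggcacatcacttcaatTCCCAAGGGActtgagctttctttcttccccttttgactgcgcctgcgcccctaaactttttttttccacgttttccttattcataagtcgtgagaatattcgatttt
plr-1, chrIII:11459041-11459304: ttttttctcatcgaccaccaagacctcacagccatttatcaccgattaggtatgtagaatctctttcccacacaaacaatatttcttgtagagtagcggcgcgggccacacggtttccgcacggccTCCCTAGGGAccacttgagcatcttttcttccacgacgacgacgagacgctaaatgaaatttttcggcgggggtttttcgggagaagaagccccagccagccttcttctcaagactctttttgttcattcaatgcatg
The site began at base 94 of the acy-1 peak, base 157 of the dmsr-7 peak and base 127 of the plr-1 peak, each peak being 264 bp long. The sites of acy-1 and plr-1 read the same on both strands down to their 2 central bases, while the central bases of the dmsr-7 site do not. Of 390 exact COE sites in the nuclear genome, 63 had the central bases of the acy-1 site, 66 those of the dmsr-7 site on one strand or the other, and 12 those of the plr-1 site. The peak of tns-1 is described by position only. Each of the 4 windows held 1 exact COE site and, with either pyrimidine allowed at the first base and either purine at the last, no further one.

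The peak upstream of the neuropeptide receptor gene dmsr-7 (WBGene00016428, chromosome V, 5405353 to 5408386, forward strand) had the highest signal of the 4. Its summit lay 1237 bp upstream of the 5' end, between protein-coding genes. The signal was 143 in the conservative list (rank 101 of 631 by signal) and the peak had rank 180 of 30297 in the ranked list for both replicates. In replicate 1 the signal was 74.2 (rank 179 of 33914), and in replicate 2 it was 61.7 (rank 245 of 34079). The peak was in both replicates' own thresholded lists, and in all 3 ranked lists it stood within the uppermost 0.719%. An annotated non-coding RNA gene, C35A11.8 (5403877 to 5404165, forward strand), covered both the summit and the COE site. Another on the reverse strand, C35A11.6 (5403849 to 5403997), overlapped the peak by 14 bp and covered neither.

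The rest of the dmsr-7 window held lower summits, at places that differed between lists. The ranked list for both replicates had 1 other, promoter-proximal at 462 bp past the 5' end and intronic, with a signal of 23.8 (rank 19233). Replicate 1 had 1 in an intron at 540 bp (12.5, rank 28427) and 1 in a coding exon at 1973 bp (16.5, rank 15456). Replicate 2 had 1 in a coding exon at 1337 bp (9.39, rank 33687). The peak with the site had 6.02 times the signal of the other summit in the ranked list for both replicates.

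At the adenylyl cyclase gene acy-1 (WBGene00000068, chromosome III, 4722095 to 4730919, forward strand) the peak lay in the promoter region, 236 bp upstream of the 5' end. Its signal was 88.0 in the conservative list (rank 270), and it ranked 392 of 30297 in the ranked list for both replicates. Replicate 1 gave 52.02 (rank 317) with the summit 262 bp upstream, and replicate 2 gave 32.6 (rank 702) with the summit 236 bp upstream. Replicate 1 was the higher, and the thresholded list of replicate 1 had the peak while that of replicate 2 lacked it. The IDR (irreproducible discovery rate) of the peak was 0.0215 in replicate 2. The IDR estimates what share of the peaks rated as reproducible as a given peak, or more so, are in fact not reproducible. The 2 replicates averaged 42.3 ± 13.7 (SD, n = 2), the widest spread of the 4 genes. The peak overlapped by 111 bp a non-coding RNA gene on the reverse strand, F17C8.10 (4721880 to 4722074), which covered neither the summit nor the site.

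Along acy-1 all other summits had lower signals than the one at the site in the same list. The ranked list for both replicates had summits in introns at 1707 bp (signal 21.6, rank 21760) and 4100 bp (22.7, rank 20613) downstream of the 5' end and in a coding exon at 5431 bp (20.8, rank 22549). Replicate 1 had summits in introns at 2406 bp (19.5, rank 8790), 4175 bp (16.4, rank 15940) and 8335 bp (20.6, rank 6921), and 1 between genes (14.2, rank 22773). The last was promoter-proximal, 1098 bp upstream of acy-1 and 327 bp upstream of emb-5, the gene on the other side. Replicate 2 had summits in introns at 2054 bp (16.9, rank 9410) and 4075 bp (12.8, rank 21516), and in coding exons at 2854 bp (17.5, rank 8324) and 4474 bp (16.6, rank 10195). Within 100 bp of the intronic summit at 4100 bp, both replicates had a ranked summit. The peak with the site had 3.88 times the highest signal of the others in the ranked list for both replicates.

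The peak of plr-1 (WBGene00023404, chromosome III, 11456877 to 11462897, forward strand), the gene of the ligase that clears Wnt receptors, lay in the second intron (1966 bp long), 2296 bp downstream of the 5' end. It had the lowest signal of the 4 in the lists for both replicates, 72.4, with rank 403 of 631 in the conservative list and 551 of 30297 in the ranked list. In the replicates alone it did not stand lowest. Replicate 1 gave 46.8 (rank 400) and replicate 2 gave 51.7 (rank 325), a mean of 49.3 ± 3.43 (SD, n = 2), and the peak was in both thresholded lists. The peak overlapped by 35 bp a non-coding RNA gene in the same intron, Y47D3B.14 (11459270 to 11459419), away from the summit.

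Other plr-1 summits lay in front of the gene and along it. The ranked list for both replicates had 1 between genes 881 bp upstream (signal 26.6, rank 15567) and 1 in an intron at 1092 bp (29.3, rank 11815). Replicate 1 had summits 983 bp (21.2, rank 6090) and 237 bp upstream (21.0, rank 6311), at 273 bp (13.4, rank 25338) and 1152 bp (14.05, rank 23173) in introns, and in a coding exon at 4496 bp (17.7, rank 12407). Of these, the summits 237 bp upstream and at 273 bp were promoter-proximal. Replicate 2 had summits 827 bp upstream (13.4, rank 19237), in introns at 1052 bp (16.1, rank 11337) and 3274 bp (12.6, rank 22187), and in a coding exon at 5073 bp (13.8, rank 18105). All 3 summits of the ranked list for both replicates lay in peaks that overlapped a ranked peak in each replicate, which did not hold at the other 3 genes. The peak with the site had 2.47 times the highest signal of the others.

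The tensin gene tns-1 (WBGene00006508, chromosome I, 5583407 to 5607529, reverse strand) is the longest of the 4 and the only one with more than 1 annotated transcript, having 10 coding transcripts with 10 different 5' ends. Its peak, 5589549 to 5589812, lay 17848 bp downstream of the outermost 5' end, in an intron of 3622 bp (5587929 to 5591550) that 7 of the 10 transcripts share. The same summit lay 88 bp upstream of the 5' end of an inner transcript, M01E11.7b.1, so it was intronic for the long transcripts and promoter-proximal for a short one. The signal was 103 in the conservative list (rank 183), and the rank was 284 of 30297 in the ranked list for both replicates. Replicate 1 gave 44.8 (rank 437) and replicate 2 gave 54.96 (rank 285), and the peak was in both thresholded lists. Replicate 2 was the higher here, opposite to acy-1.

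The replicates differed in the other tns-1 summits, of which replicate 2 had 7 and replicate 1 none. In the ranked list for both replicates there were 3, all promoter-proximal: 1 in an intron, at 417 bp (signal 30.3, rank 10646), 1 in a coding exon at 21514 bp (24.96, rank 17754), near the 5' end of an inner transcript, and 1 between genes 1531 bp upstream (23.3, rank 19926), which lay 219 bp upstream of ubl-5, the neighbouring gene. Replicate 1 had no ranked summit in the window of 26123 bp other than the one at the site. In replicate 2 they lay 1534 bp upstream (13.9, rank 17665) and in introns at 414 bp (19.3, rank 5508), 2498 bp (15.7, rank 12283), 10480 bp (9.58, rank 33084), 11595 bp (14.7, rank 15071), 12458 bp (11.7, rank 25657) and 21585 bp (13.1, rank 20234). Those at 414, 10480 and 21585 bp were promoter-proximal, and so was the one 1534 bp upstream, which lay 222 bp upstream of ubl-5. The peak with the site had 3.42 times the highest signal of the others in the ranked list for both replicates.

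**Figure D1:**
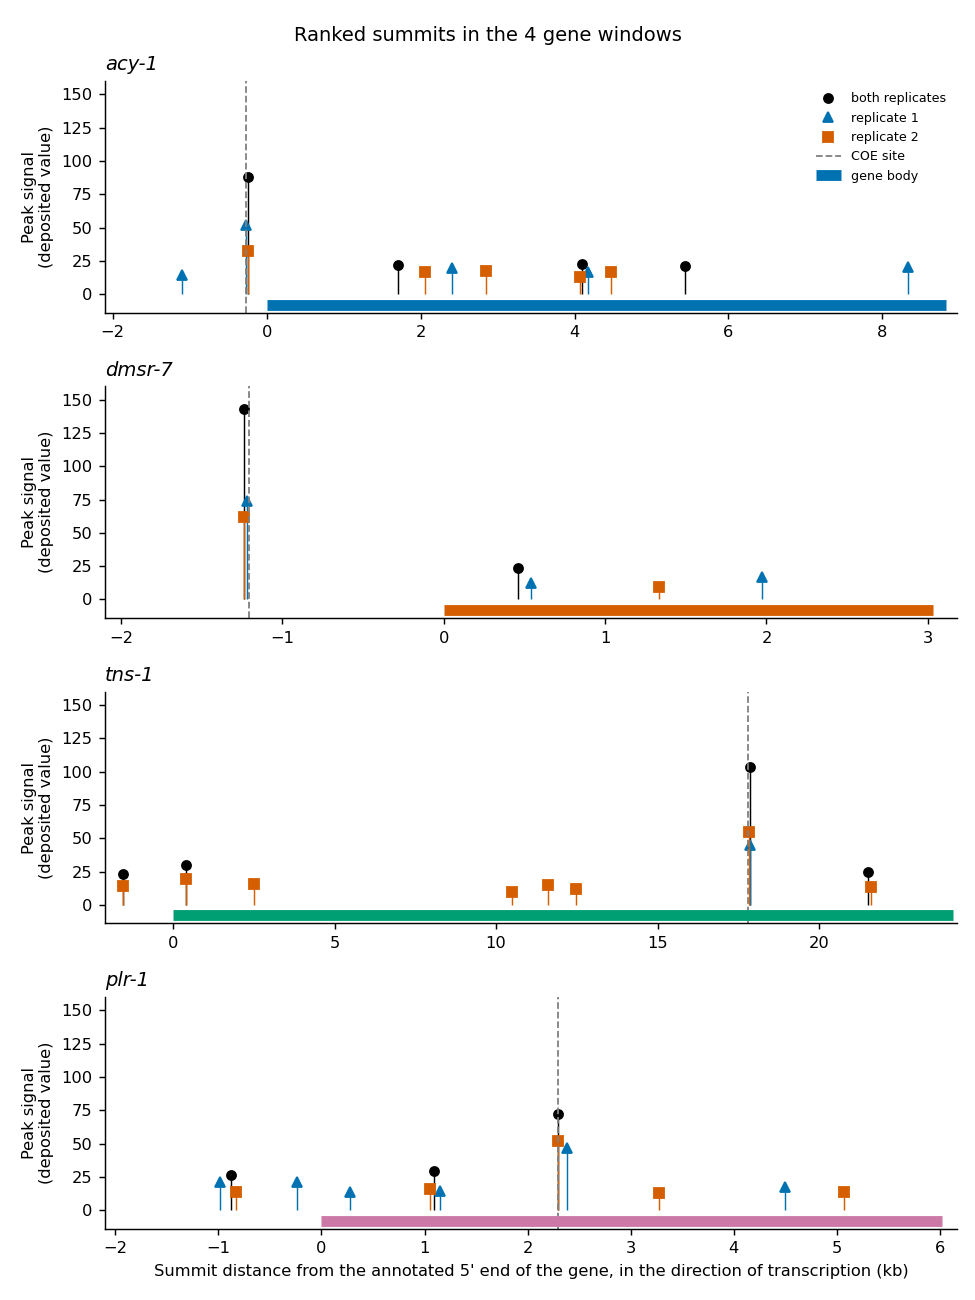
Peak signal (vertical axis, deposited value) of each ranked summit against its distance from the outermost 5' end of the gene in kb (horizontal axis), for the list of both replicates (black circles), replicate 1 (blue triangles) and replicate 2 (orange squares). The bar is the gene body and the dashed line the COE site: in each window the highest summit stands at the site, and the other summits of the list for both replicates stay at or below 30.3.

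No summit in the 4 windows other than the 4 at the sites reached an IDR of 0.01 in any of the 4 ranked lists. For the chosen peaks in the ranked list for both replicates it was 1.80e-05 at dmsr-7, 1.53e-04 at tns-1, 1.60e-04 at plr-1 and 5.78e-04 at acy-1. By number, the windows held 2 ranked summits at dmsr-7, 4 at acy-1, 3 at plr-1 and 4 at tns-1. The 500 protein-coding windows nearest in length to each had a median of 1, 3, 2 and 7 ranked summits in the same order of genes. The counts of the 4 genes include the summit at the site, which the rule required and the other windows need not hold. Without that summit they were 1, 3, 2 and 3, so no surplus is read from them. Of the windows set beside tns-1, which ran from 15596 to 43060 bp, 75.6% had more ranked summits. The tns-1 count depended on the list, being 1 in replicate 1 and 8 in replicate 2. By the highest signal in the window, dmsr-7 stood at place 127 of 19973 genes, tns-1 at 228, acy-1 at 334 and plr-1 at 503. Any ranked summit in the window was found for 64.6% of protein-coding genes, a conservative summit for 3.59%, and a conservative summit with a COE site for 14 genes, or 0.0701%. A summit of the thresholded list of replicate 1 was in the windows of 2.06% of genes, and likewise 2.06% for replicate 2. The rule fixed the conservative summits of the 4 genes, so nothing is read from these places and shares.

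The summits lay within 58.5 bp of the centre of the COE site in the conservative list, and on different sides of it. The distance was 28.5 bp at dmsr-7, 34.5 bp at acy-1, 1.5 bp at plr-1 and 58.5 bp at tns-1. In replicate 1 it was 8.5, 8.5, 83.5 and 53.5 bp for the same genes, and in replicate 2 it was 29.5, 34.5, 1.5 and 47.5 bp. The acy-1 summits stood to the right of the site on the forward strand, and those of dmsr-7 and tns-1 to the left. The plr-1 summits of the replicates lay 82 bp apart, compared with 26 bp at acy-1, 21 bp at dmsr-7 and 6 bp at tns-1. A separation of 82 bp or more was found at 8.05% of the 621 conservative peaks that each replicate also had in its ranked list, whose median was 20 bp.

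**Figure D2:**
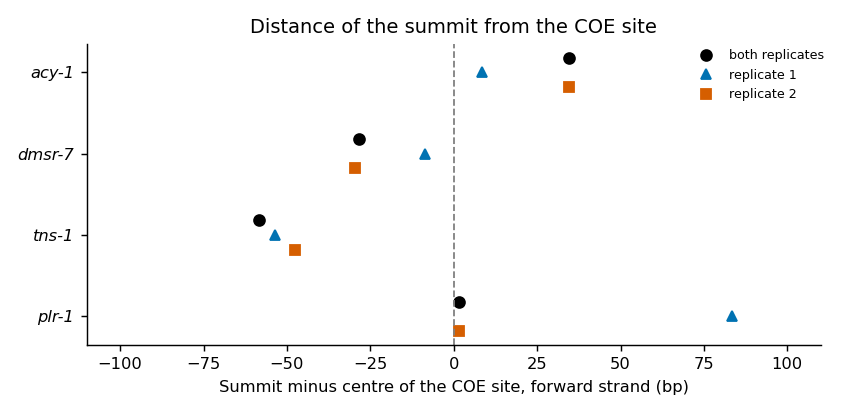
Position of the summit minus the centre of the COE site in bp on the forward strand (horizontal axis) for the 4 genes (rows), in the conservative list for both replicates (black circles), replicate 1 (blue triangles) and replicate 2 (orange squares). Each summit lies within 60 bp of the site except that of replicate 1 at plr-1, at 83.5 bp.

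The sources used here do not define the signal, so values of different lists may not share a scale. At plr-1 the value for both replicates was low beside those of the single replicates. Its signal of 72.4 was 0.735 times the sum of the replicate signals, 98.5. The ratio was 1.04 at acy-1 (88.0 against 84.6), 1.05 at dmsr-7 (143 against 136) and 1.04 at tns-1 (103 against 99.7). Over the 621 peaks the median ratio was 0.998, and 3.70% of them had a ratio as low as that of plr-1 or lower. That share includes weak conservative peaks matched to the same replicate peaks as a stronger conservative peak. In 1 such pair the signals were 22.4 and 136, with replicate values of 59.7 and 71.5 for both. The 3.70% thus does not tell how rare the plr-1 ratio is among peaks with replicate peaks of their own. The median was 1.01 for the 365 peaks whose replicate summits lay at most 25 bp apart and 0.904 for the 53 with summits at least 76 bp apart. The lower quartile of those 53 was 0.777, so the plr-1 ratio was low among them too. Whether the separation of the summits lowers the ratio was not tested. The order of the 4 genes depended on the list: plr-1 was last for both replicates together, acy-1 was last in replicate 2 and tns-1 was last in replicate 1, while dmsr-7 led in all 3.

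Between the replicates, the signal of dmsr-7 in replicate 1 was 1.20 times that in replicate 2, and that of acy-1 was 1.60 times. At tns-1 and plr-1 replicate 1 was the lower, with ratios of 0.815 and 0.906. On the log2 scale these ratios were 0.27, 0.67, -0.30 and -0.14, against a median of 0.12 over the 621 peaks, of which 91.3% had a ratio at or below that of acy-1. The replicate means were 68.0 ± 8.85 at dmsr-7, 49.9 ± 7.21 at tns-1, 49.3 ± 3.43 at plr-1 and 42.3 ± 13.7 at acy-1 (SD, n = 2 each). No scaling was applied between the 2 replicate lists, so any difference in scale between them is part of the SD. The values of acy-1, plr-1 and tns-1 overlapped across genes, so their order is not told apart by 2 replicates. Both dmsr-7 values were higher than every replicate value of the other 3 genes. With 2 replicates in 1 group no exact test could be made.

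**Figure D3:**
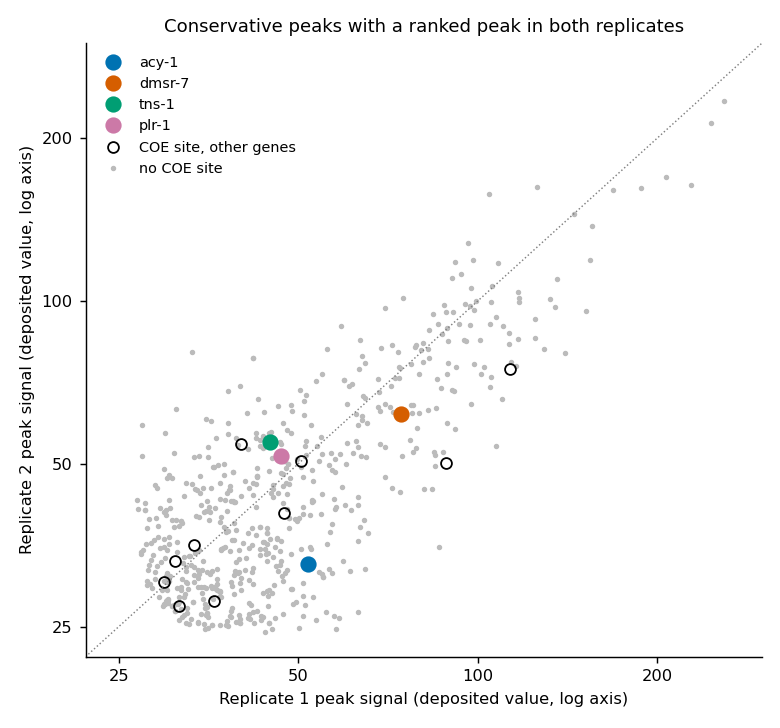
Signal in replicate 2 (vertical log axis) against replicate 1 (horizontal log axis) for the 621 conservative peaks found in each ranked replicate list, with the 4 genes in colour, other peaks with a COE site as open circles and peaks without one as grey points. The dotted line marks equal values; acy-1 and dmsr-7 lie below it, tns-1 and plr-1 above.

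Among the 15 conservative peaks with a COE site, the 4 peaks stood at places 3 (dmsr-7), 4 (tns-1), 8 (acy-1) and 9 (plr-1) by signal. Their median was 95.7 (range 72.4 to 143), beside 70.7 (56.9 to 190) for the other 11 and 81.5 for all 631 conservative peaks. The peaks in front of C09F5.3 (190) and in egl-27 (145) were higher than that of dmsr-7, and acy-1 (88.0) stood next to the peaks in C08G9.1 (89.1) and in the cholinergic locus cha-1/unc-17 (89.4). In both replicates' thresholded lists were 3 of the 4 peaks, 2 of the other 11 and 36.1% of all conservative peaks. The list of replicate 1 had all 4 of them and 50.6% of all conservative peaks, and that of replicate 2 had 3 of them and 52% of all. The 4 genes were chosen from the 15 with these values known, so the difference was not tested. Ranked peaks with a COE site just outside the conservative list had an IDR of 0.0106 (nearest 5' end nlp-57, signal 57.4) and 0.0193 (tpa-1, signal 78.9). Just inside it stood the peaks of lin-59 (0.00671, signal 56.9) and ckr-2 (0.00600, signal 57.7).

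**Figure D4:**
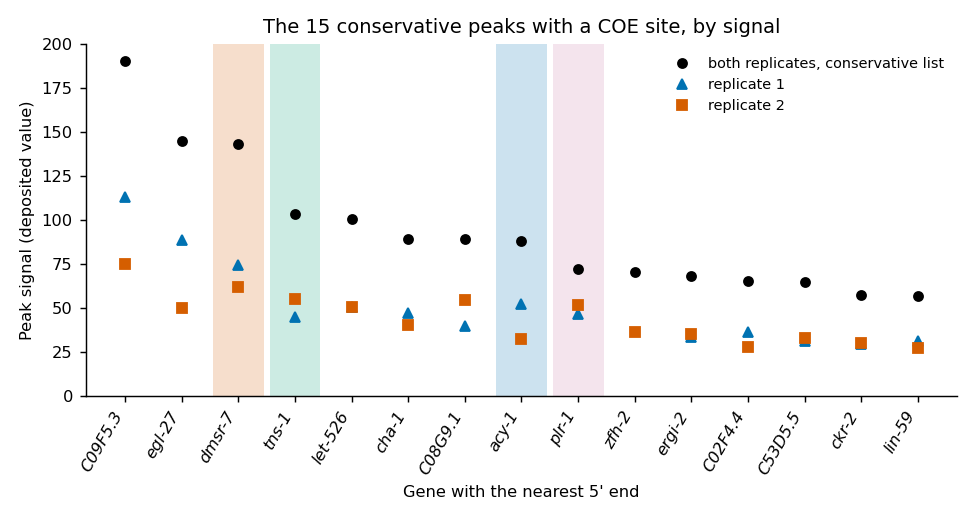
Signal (vertical axis, deposited value) of the 15 conservative peaks with a COE site, named by the gene with the nearest 5' end and ordered by signal, in the conservative list (black circles), replicate 1 (blue triangles) and replicate 2 (orange squares). Shading marks the 4 genes, which lie between 72.4 and 143 in the conservative list; zfh-2 had no ranked peak in replicate 1.

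Most COE sites of the genome had no peak. Of the 390 exact sites, 15 (3.85%, 95% Clopper-Pearson interval 2.17 to 6.26) had a conservative summit within 100 bp, and 115 (29.5%, 25.004 to 34.3) had a ranked summit. An exact site stood in the windows of 350 of 19973 protein-coding genes. By the place of the site, conservative summits were at 8 of 105 intronic sites, the class of the plr-1 site (7.62%, 3.35 to 14.5), and at 4 of 129 intergenic sites, the class of the dmsr-7 site (3.10%, 0.851 to 7.75). They were at 3 of 107 promoter-proximal sites (at most 500 bp from the 5' end of a coding transcript), 2 of them those of acy-1 and tns-1 (2.80%, 0.582 to 7.98), and at 0 of 45 in coding exons (upper bound 7.87%). Among all conservative summits, 42.6% lay within 500 bp of such a 5' end, as 2 of the 4 did. These intervals overlap, cover counting error only and do not separate the classes.

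**Figure D5:**
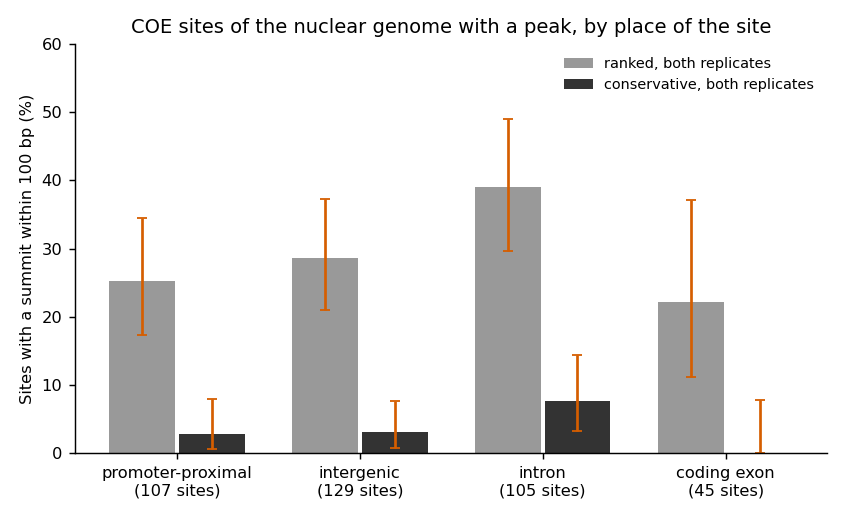
Share of exact COE sites in the nuclear genome with a summit within 100 bp, in percent (vertical axis), by the place of the site (horizontal axis), for the ranked list (grey) and the conservative list (dark) for both replicates. Bars show the share and lines the 95% Clopper-Pearson interval; the conservative share was 7.62% in introns and 2.80% near 5' ends.

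The 4 peaks shared few other features. The GC content within 100 bp of the summit was 41.3% at dmsr-7, 47.8% at acy-1, 50.7% at plr-1 and 51.7% at tns-1, compared with a median of 45.8% over conservative peaks and 39.3% over ranked peaks. None of the 235 overlapping 30-base words of each peak occurred a second time in the genome, on either strand. No tRNA, snoRNA or snRNA gene lay within 500 bp of any of the 4 summits, whereas 34.5% of conservative summits had one. In the 100 bp on each side of the summit, searched on both strands, the sequence GAGAGA was found at acy-1 and tns-1 (29.2% of conservative peaks and 14.7% of ranked peaks). The GATA factor sequence TGATAA was found at acy-1 and plr-1 (7.61% and 14.1%), the homeodomain sequence TAATTA at acy-1 (4.12% and 6.88%) and the E-box CAGCTG at tns-1 (5.07% and 4.65%). At dmsr-7 none of the 4 was found.

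Most other genes of the 4 pathways lacked conservative peaks. None of the 4 lists had a conservative peak with a COE site, which 0.0701% of all protein-coding genes had, so nothing is read from that. Of 27 genes of cyclic AMP and G protein signalling, 4 had a conservative summit (14.8%), against 3.59% of all protein-coding genes. They were egl-30, the Gq alpha subunit (signal 88.0, 49 bp upstream of the 5' end), eat-16, a regulator of G protein signalling (77.3, 194 bp upstream), goa-1, the Go alpha subunit (66.5, in an intron), and unc-73, a guanine nucleotide exchange factor of the Trio type (54.7, in an intron). Replicate 1 gave 56.0, 45.1, 38.5 and 31.6 for these genes, and replicate 2 gave 35.6, 28.8, 26.8 and 25.8, so replicate 1 was the higher at each, as at acy-1. That is not particular to these genes, since replicate 1 was also the higher at the median of the 621 conservative peaks (log2 ratio 0.12). The thresholded list of replicate 1 held 2 of the 27 genes and that of replicate 2 held 1, beside 2.06% of all protein-coding genes in each. Of the 4 conservative peaks named, those of egl-30 and eat-16 overlapped a thresholded peak of replicate 1. Those of goa-1 and unc-73 did not, and none of the 4 overlapped a thresholded peak of replicate 2. Of the 4 with a conservative summit, 2 had one within 500 bp of a 5' end. The eat-16 summit also lay in an intron of another gene, ocrl-1.

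Of 33 genes of the Wnt pathway, on whose receptors PLR-1 acts, 4 (12.1%) had a conservative summit, against 3.59% of all protein-coding genes. The count was 2 of the 33 in the thresholded list of either replicate alone, beside 2.06% of all protein-coding genes in each. It was 0 when summits had to lie within 500 bp of the gene's 5' end. For that rule the share of all protein-coding genes was not computed, so nothing is read from such counts. The 4 were mom-1, needed for Wnt secretion (signal 224 and 67.7), hmp-2, a beta-catenin (113), mom-5, a Frizzled receptor (59.6), and lit-1, a Nemo-like kinase (54.9). The mom-1 peak of 224 lay 777 bp upstream of mom-1, nearer to lev-9, with a short RNA gene of the tRNA, snoRNA or snRNA class within 500 bp, and the hmp-2 peak lay 223 bp upstream of K05C4.7. The mom-5 peak lay in an untranslated region, 4015 bp downstream of the 5' end of mom-5 and nearer to that of tsp-7. The lit-1 peak lay in an intron, 11060 bp downstream of the outermost 5' end. Neither overlapped a thresholded peak of either replicate. Of 29 integrin adhesion genes, 1 (3.45%) had a conservative summit, near the 3.59% of all protein-coding genes. It was the tyrosine kinase gene src-1 (81.9), also within 500 bp of a short RNA gene, and the thresholded list of replicate 1 had 0 of the 29. Of 35 other genes for DMSR and FRPR neuropeptide receptors, 0 had one, and 20 (57.1%) had a ranked summit, beside 3.59% and 64.6% of all protein-coding genes. These shares do not set the receptor genes apart. The highest ranked signal in the window had a median of 42.4 over the cyclic AMP and G protein genes, 36.5 over the Wnt genes, 38.1 over the adhesion genes, 23.8 over the receptor genes and 26.1 over all protein-coding genes. Genes with no ranked summit entered these medians as 0, and window length was not adjusted for in the counts.

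By signal in the 2 replicates (distance between log10 values), the conservative peaks most like that of dmsr-7 had nearest 5' ends at T15B12.1 (72.03 and 62.4) and nmad-1 (77.5 and 62.0). For acy-1 they were rae-1 (54.2 and 31.6) and K02B2.6 (54.8 and 31.3), and for tns-1 M04B2.7 (43.6 and 56.2) and hsr-9 (43.7 and 53.5). For plr-1 they were 2 overlapping conservative peaks in mbl-1 that share 1 peak in each replicate (47.4 and 50.6). Their signals in the conservative list were 17.0 and 99.3, beside 72.4 at plr-1, so the likeness holds for the replicate values alone. The first value is replicate 1 and the second replicate 2 throughout. A short RNA gene lay within 500 bp of the peaks at T15B12.1, K02B2.6 and M04B2.7. Likeness over 2 samples describes these libraries only.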

How the data were processed

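Late embryos of 1 group with 2 biological replicates were analysed. The authors deposited 8 peak lists on ce11, per the file headers and the records beside them: for both replicates together 2 ranked and 2 thresholded lists, and a ranked and a thresholded list for each replicate. The deposited signal is taken as peak strength; what it counts, the peak caller and the aligner are, in the sources used here, not given. The deposited score is a scaled IDR, and the deposited ranked lists also hold the IDR on a −log10 scale. The thresholded lists name 1 more source file than the ranked lists. In the ranked lists for both replicates, 16 further columns were not used. Ranks were computed from the signal, 1 being the highest.

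Genes came from Ensembl release 115 and sequences from RefSeq, both WBcel235; no peak ran past the end of the 6 nuclear chromosomes. Annotated 5' ends are often trans-splice sites. Promoter-proximal means at most 500 bp from the 5' end of a coding transcript. The places intergenic, between genes, intron and exon take only protein-coding genes into account. Replicate peaks were matched by an overlap of at least 1 bp. The site search and window counts were tested on simulated data. Python 3.11.15, NumPy 2.4.6, pandas 2.3.3 and SciPy 1.17.1 were used.

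The 4 genes and the pathway lists were chosen with earlier results of these data known. Beside the 4 genes, named genes are up to 4 of highest signal from each pathway list and the 2 peaks most like each gene's; genes at other COE peaks and at the threshold were named after their values were seen. Alternatives were another list, each replicate alone, site distances of 50 and 250 bp, a relaxed pattern, and windows with 1000 and 5000 bp upstream.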

Additional observations from a re-analysis of the deposited data

How the results depend on the processing

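Of 96 alternatives over 20 values, 63 stayed within the spread between replicates, the 95% interval or, for counts, 1.5 times, and 33 did not. All 4 genes kept a peak with a COE site under 7 of 10 alternatives. Among the 7, a site within 250 bp, the relaxed pattern and 5000 bp upstream only loosened the rule that chose the genes. The whole ranked list held the same 4 peaks. Those settings could not lose a gene, so nothing is read from them. The number of genes kept was 3 to 4 with 1 replicate left out, acy-1 being lost with replicate 2 alone. It was 3 with a site within 50 bp (without tns-1) and 3 with 1000 bp upstream (without dmsr-7). The place in the list, as a share of peaks at or above it, moved within the short conservative list to 42.8% at acy-1, 16.01% at dmsr-7, 29.0% at tns-1 and 63.9% at plr-1 because that list holds 631 peaks. With 1 replicate left out the place was 0.935% to 2.06% at acy-1, 0.528% to 0.719% at dmsr-7, 0.836% to 1.29% at tns-1 and 0.954% to 1.18% at plr-1, against 1.82% for plr-1 with both and 2.04% in the second ranked list. The site's distance from the summit was then 8.5 to 34.5 bp at acy-1, 8.5 to 29.5 bp at dmsr-7, 47.5 to 53.5 bp at tns-1 and 1.5 to 83.5 bp at plr-1. Ranked summits in the window numbered 5 in either replicate at acy-1, 2 to 3 at dmsr-7, 1 to 8 at tns-1 and 5 to 6 at plr-1, with 1 at acy-1 in the second ranked list and 1 at dmsr-7 with 1000 bp upstream. The share of COE sites with a ranked summit was 20.8% within 50 bp, 38.7% within 250 bp, 22.4% with the relaxed pattern and 24.1% to 27.7% with 1 replicate left out. The conservative share was 2.03% with the relaxed pattern and 2.31% to 2.56% with 1 replicate left out. Of the pathway lists, cyclic AMP and G protein signalling had 1 to 2 genes and the Wnt pathway 2 to 2 with 1 replicate left out, and 2 and 0 within 500 bp of a 5' end. Integrin adhesion had 0 to 1, 2 with 5000 bp upstream and 0 within 500 bp of a 5' end. The cause of these moves was not tested where the setting's own construction does not show it. No paired analysis was possible because the labels give 1 group.

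The signal has no stated unit and the depth is unknown, so whether a gene lacks a peak for want of reads was not tested.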
